A study of Mus musculus with 8 samples.

Results

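Integrins are cell surface receptors made of an alpha and a beta chain that hold cells to the extracellular matrix. Outside the cell the pair of chains decides which matrix protein is bound, and inside the cell the short tail of the beta chain recruits talin and kindlin, which link the receptor to actin. In brain vessels, integrins anchor endothelial cells, pericytes and astrocyte endfeet to the shared basement membrane, which is built mainly of laminins and collagen IV. The genes described here are 10 integrin subunits of the vessel wall that bind laminin, collagen, fibronectin or vitronectin, chosen by name among 48404 listed genes: the alpha chain genes Itga1, Itga2, Itga3, Itga5, Itga6 and Itgav and the beta chain genes Itgb1, Itgb3, Itgb4 and Itgb5.

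RNA was sequenced from brain microvessels of wild type C57BL6 mice, in 4 libraries of the sham group and 4 of the tMCAO group. Sham means surgery without occlusion, and tMCAO stands for transient middle cerebral artery occlusion, a stroke model in which a filament blocks an artery of the brain and is then withdrawn. No transgene, drug or age is given in the labels, and the time from surgery to sampling is not given in the sources used here. No label says that libraries of a group are from separate mice, so p-values reflect only the spread among these 8 libraries, which could be technical. Each tested gene has a log2 fold change and a p-value from the authors' comparison of the groups, which asks which microvessel transcripts differ after stroke. Levels in each library and the sequencing depth were not analysed here, so the error of each gene is an implied standard error, worked back from its fold change and p-value. The deposited folds may be shrunken, which would also affect the errors derived from them.

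Which group is the numerator is not stated in the file. A positive value was taken to mean higher after tMCAO because the injury genes Il6, Lif and Hmox1 stood at 5.92, 5.14 and 3.81 on the log2 scale per the authors' deposited table. The p-value was read as adjusted over all tested genes, and a gene was called at an adjusted p under 0.05. Among markers of the labelled tissue, all 14 endothelial genes examined were tested, of which 8 rose and none fell, with a median log2 change of 0.63 per the authors' deposited table. All 8 neuron markers fell, with a median of -1.09 per the authors' deposited table. Beside these counts, 15.2% of all tested genes were called higher and 17.6% lower. In bulk RNA of this kind, more cells of a type and more RNA per cell cannot be told apart.

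Of the 10 matrix-binding integrin genes, 9 carried a p-value, of which 5 rose after stroke, none fell and 4 were not called, taking fold changes as deposited. With values centred on the endothelial markers 2 were called higher and 1 lower, beside 2.78% and 64.0% of all tested genes. Centred on ribosomal protein genes 1 was called higher and 2 lower, beside 1.75% and 77.0% of all tested genes. The genes that rose were Itga2, Itgb3, Itgb1, Itga6 and Itga3. Of all 19294 tested genes 15.2% were called higher and 17.6% lower, 32.8% in all. At an unadjusted p under 0.05, 5 integrin genes were higher and 0 lower. Only Itgav was below 0, at -0.01, so that count of 0 could hardly have come out otherwise. The shares of all tested genes given here are at the adjusted threshold, and none is given at the unadjusted one. A rise of at least 1 on the log2 scale beside the call was reached by Itga2 and Itgb3, 2 of 9, against 4.78% of tested genes. The median log2 change of the 9 tested integrin genes was 0.70 per the authors' deposited table, beside -0.0008 for all tested genes and 0.63 for the endothelial markers. Itga5 had the highest fold change of the 10 but no deposited p-value, so it was not tested.

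**Figure D1:**
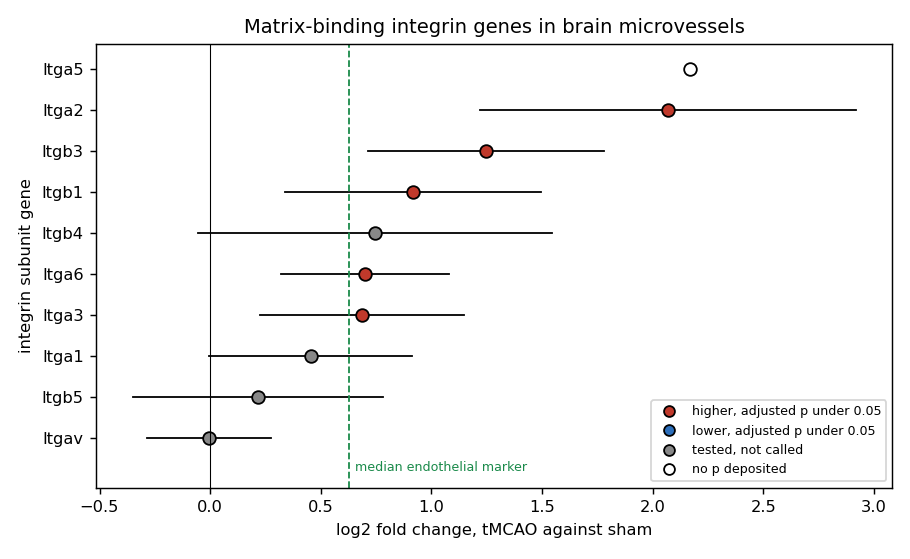
Log2 fold change (tMCAO against sham, x axis) of each of the 10 integrin subunit genes (y axis), with points coloured by call and bars giving the approximate 95% interval from the implied standard error. Itga5 at 2.17 has no p-value and no bar, Itga2 follows at 2.07, and Itgav at -0.01 is the lowest; the dashed line is the median endothelial marker at 0.63.

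The collagen receptors share the beta1 chain and differ in their alpha chain. Itga2 encodes the alpha chain of the α2β1 receptor, known as a platelet and fibroblast receptor for fibrillar collagen. It was 4.20-fold higher after tMCAO per the authors' deposited table (log2 change 2.07, implied standard error 0.43, adjusted p = 4.10e-05). Itga1 encodes the alpha chain of α1β1, a receptor with a preference for collagen IV that is found on vascular endothelium and smooth muscle. Its log2 fold change was 0.45 per the authors' deposited table, with an implied standard error of 0.23 and an adjusted p of 0.12. The approximate 95% interval of Itga1 ran from -0.0047 to 0.91, which reaches a 1.88-fold rise. The genes lie side by side on chromosome 13 of GRCm38, Itga2 from 114833081 to 114932100 and Itga1 from 114953096 to 115101964, both on the minus strand in the GENCODE M21 annotation.

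The laminin receptors are formed by Itga3 or Itga6 with Itgb1, and by Itga6 with Itgb4. Itga6, the alpha chain of the main laminin receptors of endothelium, was 1.62-fold higher after tMCAO per the authors' deposited table (log2 change 0.70, implied standard error 0.19, adjusted p = 0.0020). Itga3, the alpha chain of a receptor for laminins of the basement membrane, was 1.61-fold higher per the authors' deposited table (log2 change 0.69, implied standard error 0.24, adjusted p = 0.015). These alpha chains differed by 0.01, far below the error of either. The call of Itga3 was lost at a threshold of 0.01 and with the p-value read as unadjusted (adjusted p = 0.061). Neither gene was called under either centring, where the values were 0.06 and -0.19 for Itga3 and 0.07 and -0.18 for Itga6, on the endothelial markers and on ribosomal protein genes in turn. Itgb4, whose long cytoplasmic tail binds plectin in place of talin, had a log2 change of 0.75 per the authors' deposited table, as large as theirs. Its implied standard error of 0.41 was larger, and at an adjusted p of 0.15 it was not called. The approximate 95% interval of Itgb4 ran from -0.06 to 1.55.

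The fibronectin receptor α5β1 is known from growing vessels, where it follows fibronectin laid down around sprouting endothelium. Itga5 stood at a log2 fold change of 2.17 per the authors' deposited table, which is 4.50-fold higher after tMCAO, without a p-value. The deposited table leaves 12322 genes with a fold change but no p-value, with no reason stated, and 24 of these have a fold change as high as that of Itga5. Over all 12322 genes without a p-value, the median absolute log2 fold change was 0.19. Among tested genes, 39 had a log2 fold change within 0.1 of that of Itga5, and all 39 were called. That comparison does not test Itga5, whose spread between libraries is unknown here.

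Itgb1 encodes the beta1 chain, the partner of each alpha chain described so far. It was 1.89-fold higher after tMCAO per the authors' deposited table (log2 change 0.92, implied standard error 0.30, adjusted p = 0.0091). Its fold change lay between those of its alpha partners, with Itga5 and Itga2 above it and Itga6, Itga3, Itga1 and Itgav below it.

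The vitronectin receptors are built on Itgav, whose alpha chain pairs with several beta chains and also binds fibronectin and latent TGF-beta. Itgav had a log2 change of -0.01 per the authors' deposited table, with the smallest implied standard error of the 9 tested integrin genes, 0.14, and an adjusted p of 0.98. The approximate 95% interval of Itgav was -0.28 to 0.27, which corresponds to a ratio between 0.821 and 1.21. Itgb3, the beta chain of αvβ3 and of the platelet fibrinogen receptor, was 2.37-fold higher per the authors' deposited table (log2 change 1.25, implied standard error 0.27, adjusted p = 8.74e-05). Itgb5, the beta chain of αvβ5, had a log2 change of 0.22 per the authors' deposited table (implied standard error 0.29, adjusted p = 0.60), with an approximate 95% interval from -0.35 to 0.78. The beta3 chain gene therefore rose while Itgav, its alpha partner gene in αvβ3, was not called. Itga2b, its alpha partner gene in the platelet fibrinogen receptor, was called higher at 0.88 (adjusted p = 0.0021) per the authors' deposited table. Whether the change of Itgb3 differed from that of Itgb5 or Itgav was not tested.

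**Figure D2:**
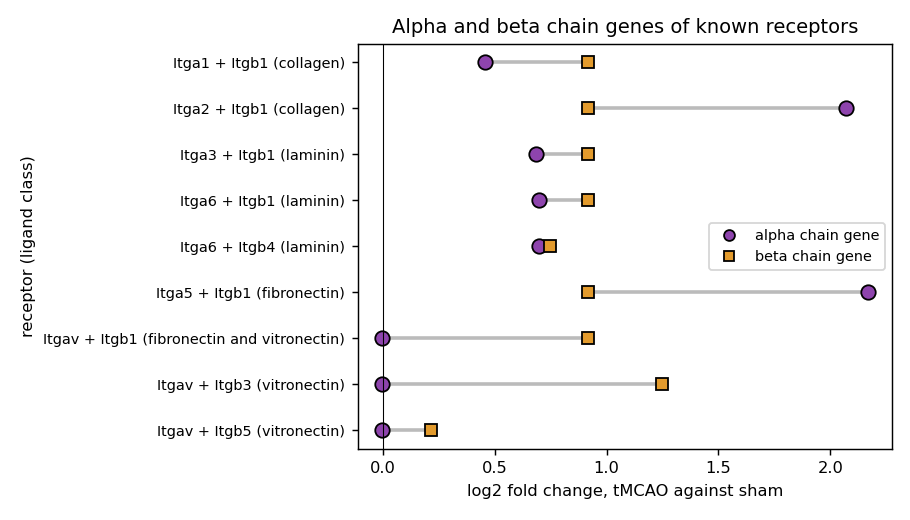
Log2 fold change (tMCAO against sham, x axis) of the alpha chain gene (circle) and the beta chain gene (square) of 9 receptors known to form from these subunits (y axis, with ligand class). The alpha chain stands above the beta chain for Itga2 and Itga5 with Itgb1, and the 3 receptors built on Itgav have an alpha chain at -0.01.

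Ordered by fold change, the genes ran Itga5, Itga2, Itgb3, Itgb1, Itgb4, Itga6, Itga3, Itga1, Itgb5 and Itgav. Taking the implied standard errors as independent, the widest step between tested neighbours was that from Itga2 to Itgb3, a difference of 0.82 on the log2 scale with a standard error of 0.51. No neighbouring tested genes in this order differed by as much as 2 such errors, the widest step being 1.61 of them. The ends of the order were far apart: 0.633% of the 31616 genes with a fold change stood as high as Itga2 or higher, against 53.1% for Itgav.

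The reference gives promoter sequences for 7 of the 10 genes. Those of the genes at the ends of the order and of the shared beta1 chain are shown, as the 250 bases before the annotated start on the coding strand (RefSeq, GRCm38.p6), with matches to the SP1 GC box GGGCGG in either orientation in capitals. Itga2 lies at chr13:114932101-114932350 on the minus strand, Itga5 at chr15:103366792-103367041 on the minus strand, Itgb1 at chr8:128685404-128685653 on the plus strand and Itgav at chr2:83724147-83724396 on the plus strand.
Itga2: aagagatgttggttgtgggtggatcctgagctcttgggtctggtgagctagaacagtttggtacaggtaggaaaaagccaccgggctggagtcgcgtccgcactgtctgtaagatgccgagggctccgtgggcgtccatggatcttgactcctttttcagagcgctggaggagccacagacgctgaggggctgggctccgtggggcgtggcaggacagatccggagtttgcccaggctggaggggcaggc
Itga5: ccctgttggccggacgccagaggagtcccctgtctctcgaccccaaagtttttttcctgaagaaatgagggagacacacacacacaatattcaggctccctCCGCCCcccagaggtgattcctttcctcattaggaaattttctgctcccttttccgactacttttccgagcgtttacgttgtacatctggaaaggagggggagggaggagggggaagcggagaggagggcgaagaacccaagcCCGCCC
Itgb1: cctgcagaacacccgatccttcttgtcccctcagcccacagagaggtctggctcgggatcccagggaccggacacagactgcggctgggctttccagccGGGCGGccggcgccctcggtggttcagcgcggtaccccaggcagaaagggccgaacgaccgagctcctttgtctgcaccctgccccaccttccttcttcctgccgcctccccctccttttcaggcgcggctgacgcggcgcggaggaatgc
Itgav: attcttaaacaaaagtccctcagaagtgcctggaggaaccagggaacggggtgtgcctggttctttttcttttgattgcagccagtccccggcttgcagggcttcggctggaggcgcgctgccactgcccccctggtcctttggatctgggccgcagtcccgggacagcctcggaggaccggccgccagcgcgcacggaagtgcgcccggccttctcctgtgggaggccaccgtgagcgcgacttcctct

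The GC box was found in the promoters of Itga5, Itgb1, Itga3 and Itgb5 and not in those of Itga1, Itga2 or Itgav, while 33.0% of 32536 distinct promoters of the same length hold it. That share was not matched for GC content. The first promoters of these genes held from 55.6% GC (Itga5) to 68% (Itgb1), above the median of 52.4% for all promoters. The second promoter of Itga3 held 50.8%. In Itga5 it was matched 149 and 6 bases before the start. The genes with and without this match each included high and low fold changes, Itga5 and Itgb5 among the former and Itga2 and Itgav among the latter. The AP-1 motif TGANTCA, held by 6.73% of promoters, the hypoxia core ACGTG, held by 16.7%, and the TATA box TATAAA, held by 12.3%, were found in none of the 8 integrin promoters searched on both strands, which include a second promoter of Itga3. These matches describe the letters of the windows and no binding was measured.

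The other integrin genes of the table were examined beside the matrix-binding ones. Of 17 other subunits, 16 were tested, of which 6 rose and 1 fell, with a median log2 change of 0.31 per the authors' deposited table. Centred on the endothelial markers 2 of these subunits were called higher and 5 lower, centred on ribosomal protein genes 1 and 7, and at a threshold of 0.01 as deposited 3 and 0. Of all tested genes, 2.78% were called higher and 64.0% lower under the first centring, and 1.75% and 77.0% under the second. As deposited the shares were 15.2% and 17.6%, and at the threshold of 0.01 they were 9.77% and 12.1%. Those that rose include the leukocyte chains Itgam, Itgb2 and Itgax at 1.91, 1.36 and 1.25 and the platelet chain Itga2b at 0.88 per the authors' deposited table. Itga4, the alpha chain of the VCAM-1 receptor of leukocytes, fell by 0.40 on the log2 scale per the authors' deposited table (adjusted p = 0.012). Whether the matrix-binding subunits rose more often than the others was not tested.

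**Figure D3:**
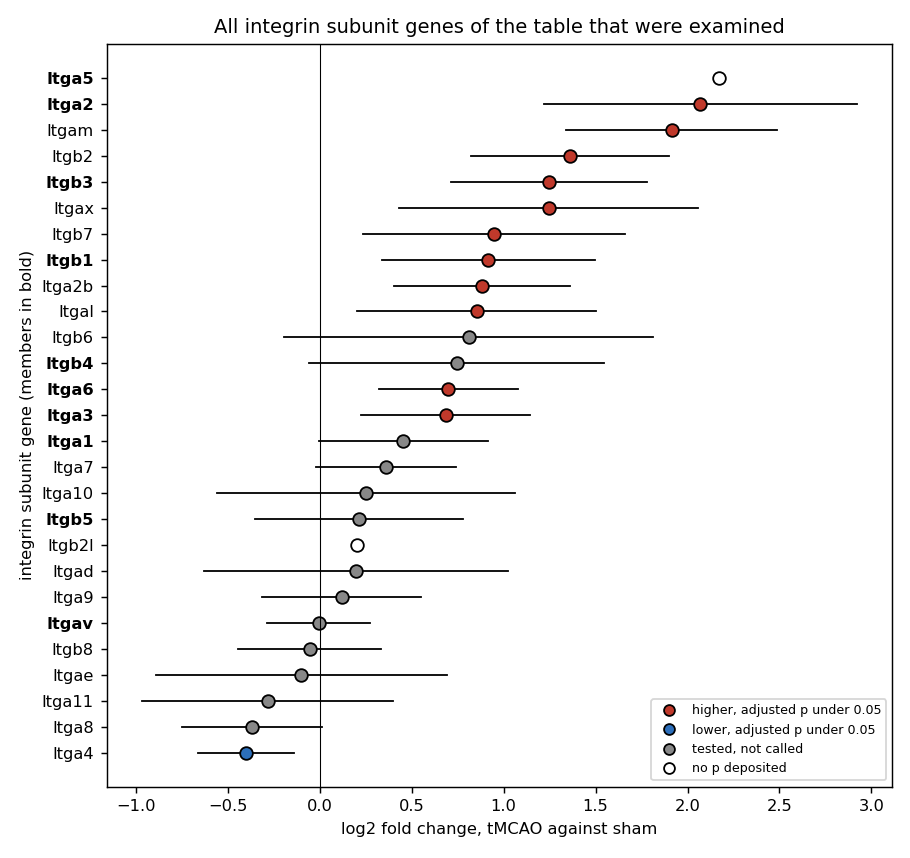
Log2 fold change (tMCAO against sham, x axis) of 27 integrin subunit genes (y axis, matrix-binding genes in bold), with points coloured by call and bars giving the approximate 95% interval. Itga5 and Itga2 head the order at 2.17 and 2.07, above the leukocyte chain Itgam at 1.91, and Itga4 at -0.40 is the lowest.

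The ligands of these receptors did not move as a block. Among laminin chains 3 of 11 rose and none fell, with a median log2 change of 0.14 per the authors' deposited table. The laminin count changed with the centring, to 0 higher and 3 lower on the endothelial markers and 0 and 5 on ribosomal protein genes. It was 1 higher and 0 lower at a threshold of 0.01. These centrings called 64.0% and 77.0% of all tested genes lower, and 2.78% and 1.75% higher. With values as deposited 15.2% of all tested genes were higher and 17.6% lower, and 9.77% and 12.1% at the threshold of 0.01. Lamb1 at 0.97, Lama4 at 0.95 and Lamc1 at 0.73, chains that together form a laminin of endothelium, were the ones that rose per the authors' deposited table. Among collagen chains 5 of 16 rose and none fell, with a median of 0.58 per the authors' deposited table. For collagen chains either centring gave 2 higher and 2 lower, and a threshold of 0.01 gave 3 higher and 0 lower. With values as deposited, no laminin chain was lower at an unadjusted p under 0.05. The lowest collagen chain stood at 0.05 as deposited, so no collagen chain could be lower at any threshold. No share of all tested genes is given at that unadjusted threshold. The collagen IV chains Col4a1 and Col4a2 stood highest at 2.04 and 1.84, beside Col18a1 at 1.35 and the fibrillar collagen gene Col3a1 at 1.33 per the authors' deposited table.

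Of 18 tested ligands of the fibronectin and RGD type, 9 rose and 3 fell, with a median log2 change of 0.88 per the authors' deposited table. Centring on the endothelial markers gave 4 higher and 5 lower ligands, and centring on ribosomal protein genes 4 and 6. Among all tested genes the shares were 2.78% higher and 64.0% lower, and 1.75% and 77.0%, in turn. As deposited they were 15.2% higher and 17.6% lower. The matricellular genes Tnc, Cyr61 and Thbs1 rose by 2.99, 2.18 and 1.84 on the log2 scale and Spp1, which encodes the αvβ3 ligand osteopontin, by 1.82 per the authors' deposited table. Edil3 at -1.10, Nov at -0.36 and Npnt at -0.35 fell per the authors' deposited table. Fibronectin itself, singled out for its role after its value was seen, was not called, with a log2 fold change of 0.52 for Fn1 per the authors' deposited table (adjusted p = 0.28). Vitronectin, singled out likewise, had a log2 change of -0.13 for Vtn per the authors' deposited table (adjusted p = 0.81).

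Genes of the adhesion complex inside the cell included 17 of 42 that rose and 2 that fell, with a median log2 change of 0.44 per the authors' deposited table. The balance of this list changed with the centring, to 1 higher and 12 lower on the endothelial markers and 0 and 17 on ribosomal protein genes. At a threshold of 0.01 it was 9 higher and 1 lower. The same centrings called 64.0% and 77.0% of all tested genes lower, and 2.78% and 1.75% higher. As deposited 15.2% of all tested genes were higher and 17.6% lower, and 9.77% and 12.1% at the threshold of 0.01. The actin cross-linker gene Actn1 rose by 0.70, the scaffold gene Pxn, which encodes paxillin, by 0.86, the filamin-binding adaptor gene Fblim1 by 1.53 and Rap1b, a small GTPase of integrin activation, by 0.82 per the authors' deposited table. The kinase gene Ptk2b fell by 0.82 on the log2 scale and Fermt1, the kindlin of epithelia, by 0.93 per the authors' deposited table. Talin and the kindlin of vessel wall cells, singled out for their role after their values were seen, were not called. Tln1 had a log2 change of 0.66 (adjusted p = 0.11) and Fermt2 one of 0.52 (adjusted p = 0.080) per the authors' deposited table. The remaining kindlin gene, Fermt3, was called higher at 0.77 (adjusted p = 0.015) per the authors' deposited table.

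Membrane proteins that associate with integrins rose in 10 of 14 tested genes and none fell, with a median log2 change of 0.91 per the authors' deposited table. This balance changed too, to 2 higher and 3 lower on the endothelial markers and 2 and 5 on ribosomal protein genes. Under these centrings 64.0% and 77.0% of all tested genes were called lower, and 2.78% and 1.75% higher. With values as deposited the shares were 17.6% lower and 15.2% higher. Plaur, the urokinase receptor, rose by 3.06, the leukocyte tetraspanin gene Cd53 by 1.46, the syndecan gene Sdc4 by 1.19 and the tetraspanin gene Tspan9 by 0.73 per the authors' deposited table. Among genes of the hemidesmosome, the anchoring structure that Itgb4 is known for in epithelia, 2 of 4 tested rose, and either centring called 0 higher and 1 lower. These were Cd151, the tetraspanin of the laminin-binding integrins, at 0.94 and the Itgb4 linker gene Plec at 0.79 per the authors' deposited table. The hemidesmosomal keratin genes Krt5 and Krt14 had no p-value.

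Matrix receptors other than integrins rose in 5 of 14 tested genes and fell in 2, with a median log2 change of 0.37 per the authors' deposited table. Centred on the endothelial markers, 2 were called higher and 6 lower, and on ribosomal protein genes 1 and 7, while a threshold of 0.01 gave 3 and 1. Over all tested genes, the centrings called 2.78% and 1.75% higher, and 64.0% and 77.0% lower. As deposited the shares were 15.2% higher and 17.6% lower, and at the threshold of 0.01 they were 9.77% and 12.1%. The hyaluronan receptor gene Cd44 rose by 2.85 and the syndecan genes Sdc1 and Sdc4 by 1.33 and 1.19 per the authors' deposited table. Rpsa, which encodes a laminin-binding protein that is also a ribosomal protein, rose by 1.41 per the authors' deposited table. The sarcoglycan genes Sgcb and Sgcd, members of the dystroglycan-associated complex, fell by 0.51 and 0.41 on the log2 scale per the authors' deposited table. Dag1, the dystroglycan gene, at -0.03 (adjusted p = 0.91) and the sarcoglycan gene Sgce at -0.18 (adjusted p = 0.20) were not called.

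**Figure D4:**
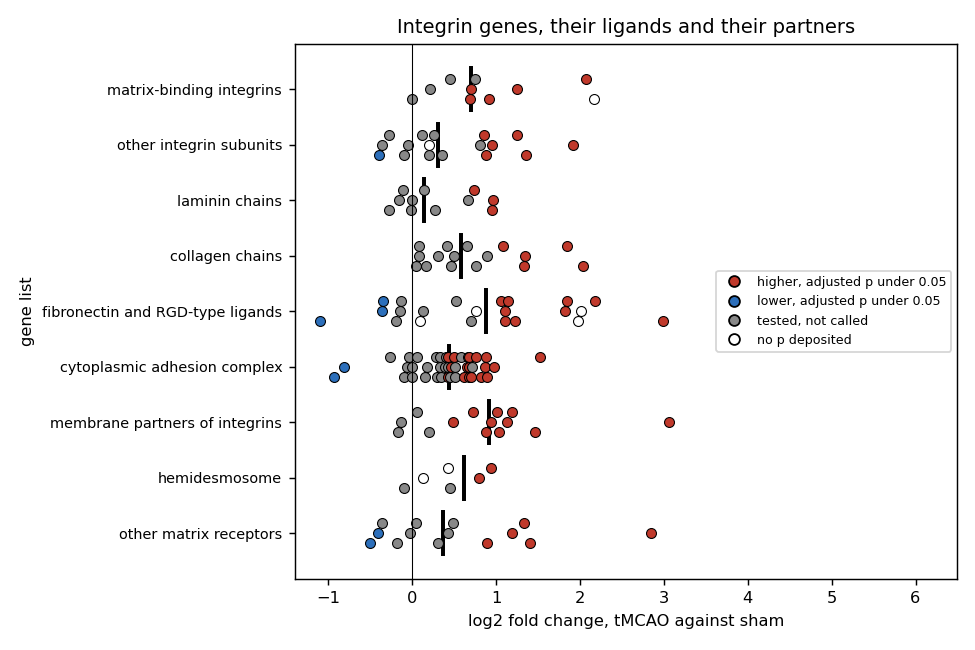
Log2 fold change (tMCAO against sham, x axis) of each gene of the integrin lists and of the lists of ligands and partners (y axis), coloured by call, with a vertical bar at the median of the tested genes of each list. Medians run from 0.14 for laminin chains to 0.91 for membrane partners, and the 9 tested matrix-binding integrin genes have a median of 0.70.

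Several integrin genes described here are also expressed by cells other than those of the vessel wall, so markers of those cells are given beside them. Platelets are known to carry α2β1 and Itgb3, and 2 of 8 tested platelet markers rose, Itga2b at 0.88 and Pf4 at 1.27, with a median log2 change of 0.31 per the authors' deposited table. Leukocytes carry several beta1 integrins. Neutrophil markers rose in 6 of 7 tested genes with a median of 2.55, and monocyte and macrophage markers in 8 of 9 with a median of 1.95 per the authors' deposited table. These marker counts are for values as deposited, where 15.2% of all tested genes were called higher and 17.6% lower. The part of these cells in the integrin values was not tested.

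Among resident cells, fibroblast markers rose in 3 of 8 genes, with a median log2 change of 0.91 per the authors' deposited table. Pericyte and smooth muscle markers rose in 2 of 12 and fell in 1, with a median of 0.24, and arterial endothelial markers rose in 2 of 8 and fell in 1, with a median of 0.36 per the authors' deposited table. Astrocyte markers rose in none of 8 and fell in 2, with a median of -0.10 per the authors' deposited table. Microglia and oligodendrocyte markers each fell in 5 of 8 genes, with medians of -0.97 and -0.45 per the authors' deposited table. None of 6 choroid plexus markers, an epithelium rich in Itgb4, was called at an adjusted p under 0.05, with a median of 0.43 per the authors' deposited table. The counts for resident cells also use values as deposited, beside 15.2% of all tested genes higher and 17.6% lower.

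The fold changes were also set against the median endothelial marker, a centring under which 536 of all tested genes were called higher and 12349 lower. The adjusted p-values of this centring use the error of the single gene and take the marker median as fixed, although the markers ranged from -0.29 to 1.18, so they leave out the error of that median. Itga2 and Itgb3 stayed above the median endothelial marker, by 1.44 (adjusted p = 0.0018) and 0.62 (adjusted p = 0.035) on the log2 scale, and Itgav was called lower, at -0.63 (adjusted p = 2.52e-05). Itgb1, Itga6 and Itga3 were no longer called, at 0.29, 0.07 and 0.06 relative to that median.

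**Figure D5:**
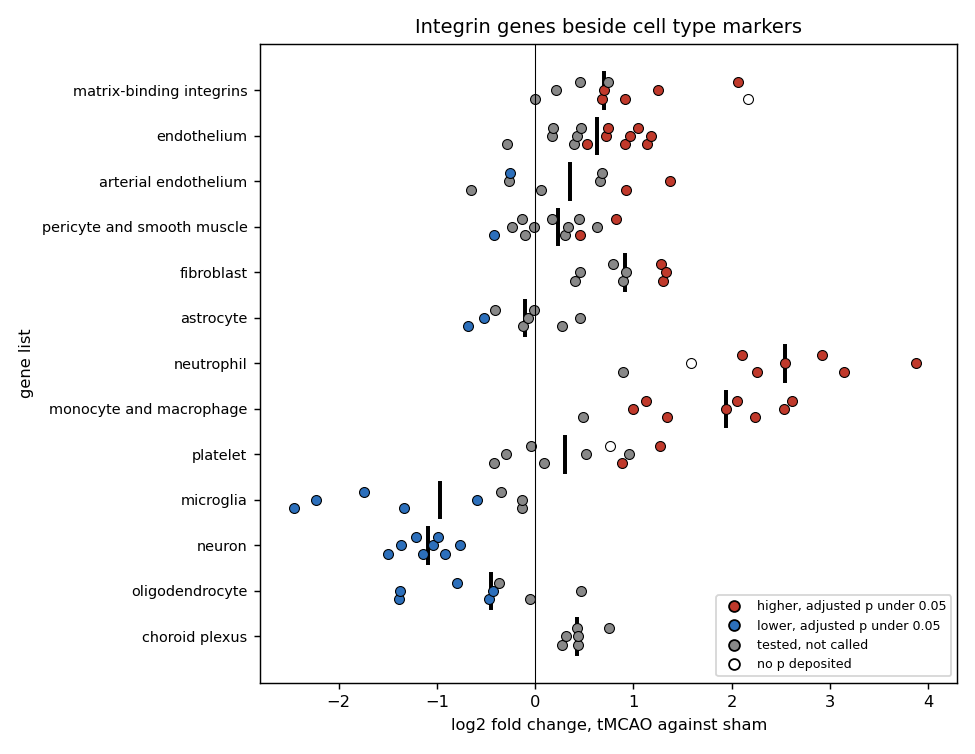
Log2 fold change (tMCAO against sham, x axis) of the matrix-binding integrin genes and of the genes of 12 cell type marker lists (y axis), coloured by call, with a vertical bar at the median of the tested genes of each list. The integrin median of 0.70 lies near the endothelial median of 0.63, below the neutrophil median of 2.55 and above the neuron median of -1.09.

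Other annotated genes overlap some of these loci, and whether reads were counted by strand is not given in the sources used here. On the same strand, Gm49395 overlaps the span of Itga1 by 66649 bases, Mir6963 that of Itga5 by 71, and Gm13662 and Gm13663 that of Itga6 by 9877 and 2694, none of them with a p-value. Pelo also lies within the span of Itga1 on that strand, over 1832 bases, and its log2 fold change was 0.28 (adjusted p = 0.23) per the authors' deposited table. Genes on the opposite strand overlap the spans of Itga1, Itga6, Itgav and Itgb4. None of these opposite-strand genes had a p-value. Itga3, Itgb3 and Itgb4 lie apart from each other on chromosome 11, and Itga6 and Itgav on chromosome 2. Itga5 spans 103344286 to 103366763 on chromosome 15, and Itgb1 spans 128685654 to 128733200 on chromosome 8 in GENCODE M21.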

How the data were processed

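RNA-seq of 8 libraries was compared between treatment labels, sham (4) and tMCAO (4). Per the submitters' processing notes the tools were STAR, HTSeq, DESeq2, cutadapt and bcl2fastq 2.19, with the build GRCm38 (mm10), and their roles and options are not given. The authors deposited a log2 fold change for 31616 of 48404 genes and a p-value for 19294, per the file headers; 0 columns hold values per library. The p-value the authors deposited was taken to be adjusted by the Benjamini-Hochberg method, since 3214 of its values are shared by genes that differ in fold change. Among genes without a p-value, 8 fold change values are each shared by 212 to 440 genes. Whether the folds were shrunken towards 0 is not stated, and this sharing alone cannot tell. Shrinkage would affect folds and errors.

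Unadjusted p-values were recovered from rank, and each fold change was divided by the matching normal deviate to give an implied standard error (median 0.22), an approximation that assumes a two-sided normal test. Intervals cover 95% under it. The arithmetic was tested on simulated data with normal noise drawn from these same errors. That test could not check the normal assumption or the effect of shrinkage. Depth is unknown, so precision rests on this error. Gene lists and members were chosen with earlier results of these data known. The rule for named genes took all members and, per list, up to 4 genes called in each direction with the smallest adjusted p, or the gene with the smallest where none passed; of the marker lists mostly counts are given. Of the table's gene IDs, 47958 were found in GENCODE M21. Python 3.11.15, pandas 2.3.3 and SciPy 1.17.1 were used. Alternatives covered the reading of the p-value, the threshold, the genes adjusted over, a minimum fold change and 3 centrings.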

Additional observations from a re-analysis of the deposited data

How the results depend on the processing

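No paired analysis was possible because the groups share no replicate number and no values per library were analysed; for the same reason no library could be left out. Adjusted over protein-coding genes alone, all 9 tested integrin genes kept their call. With the p-value read as unadjusted, or at a threshold of 0.01, Itga3 was no longer called (adjusted p = 0.061 and 0.015), the other 8 tested integrin genes kept their result, and of 133 tested genes in the related lists 36 were higher and 3 lower under either, against 55 and 8. Of all tested genes 10.1% were then higher and 12.4% lower with the first reading, and 9.77% and 12.1% at the threshold of 0.01. Where a log2 change of at least 1 was also asked for, 2 integrin genes were called higher, Itga2 and Itgb3. Centring on the endothelial markers lowers every value by 0.63, and called 2 integrin genes higher and 1 lower, and 13 related genes higher and 37 lower. Of all tested genes this centring called 2.78% higher and 64.0% lower. Under it Itga1 at -0.17 and Itgb5 at -0.41 changed sign without being called. Centring on ribosomal protein genes lowers every value by 0.88 and called 338 of all tested genes higher and 14848 lower. It called 1 integrin gene higher, Itga2, and 2 lower, Itgav and Itgb5, and 10 related genes higher and 50 lower. Under it Itga1 at -0.43, Itga3 at -0.19, Itga6 at -0.18, Itgb4 at -0.13 and Itgb5 at -0.66 changed sign. Centring on the 4824 best measured genes, whose median is -0.01, moved Itgav to 0.0028, uncalled as before, and no integrin call changed.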
